A study of Homo sapiens with 12 samples.

Results

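The interaction of actinonin and chloramphenicol asks, for each gene, whether knocking it out changed growth in actinonin by a different amount when chloramphenicol was present. It was taken over all genes of a genome-wide CRISPR knockout screen with a readable score in all 4 conditions, 19111 of the 19112 genes listed. HEK293, a human embryonic kidney cell line, carried the Brunello library, which directs about 4 single guide RNAs (sgRNAs) at each gene, and all 12 samples were collected on day 15, 3 in each condition. The conditions were the ethanol solvent (EtOH), 15 µM actinonin (ACT), 5 µg/mL chloramphenicol (CAP) and both drugs at these same doses (ACT CAP). Every condition, the control included, carried the library and had passed puromycin selection before the pool was divided, so all values describe this 1 cell line under low doses.

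Mitochondria make a small set of inner membrane proteins on their own ribosomes, the mitoribosomes, and need many nuclear genes to assemble, feed and clear this machinery. Chloramphenicol blocks the peptidyl transferase centre of the mitoribosome, so that fewer chains are made. Actinonin inhibits the peptide deformylase that trims the start of each new chain, and leaves translation running while its products are faulty. A gene needed by cells loses its guides from the pool over the days of growth, and a gene whose loss helps cells gains them.

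The deposited table gives for each gene and condition a beta, which is the change in guide abundance from the fit, and a z, which is beta divided by its standard error. Within a gene, the lower the z, the more of its guides were lost. Replicates and guides had been joined in these values, so the error of each is the standard error of the fit (median 0.0805 beta units), and the depth of each sample is unknown here. The effect of ACT without CAP was beta in ACT minus beta in EtOH, the effect of ACT with CAP was beta in ACT CAP minus beta in CAP, and the interaction was the second minus the first. Each difference was divided by its joined standard error, centred on the median of all genes and scaled by their spread. This scaled value is the number given below unless beta or z is named. The spread was taken for each kind of difference by itself, at 0.888 for ACT without CAP and 0.618 for ACT with CAP. Scaled values of different effects are therefore not in the same units, and their sizes are compared in beta or z. A gene passed at a Benjamini-Hochberg adjusted p under 0.05, from a 2-sided normal p and with the adjustment made over all genes tested, for the interaction from a scaled value of 3.63 upwards in size. The interaction uses the EtOH and ACT values that also make up the single-drug effects, so genes far from the others in ACT lean towards passing it.

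With CAP present, ACT had a lower effect than on its own for 98 genes (0.513% of those tested) and a higher one for 19 (0.0994%). Genes whose guides were enriched by ACT and no longer so with CAP present made up most of the first group, led by REXO2, COX5A and METTL17. MDH2, FASTKD1 and PTCD2, whose guides were lost in ACT and not with both drugs, led the second. Before centring and scaling, the interactions divided by their standard errors had a spread below that of a standard normal (0.751). Without the scaling 18 genes passed as lower and 3 as higher. The counts beyond the lead genes therefore rest on the scaling to all genes.

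ACT had far fewer called effects once CAP was present. Without CAP, 206 genes were higher in ACT than in EtOH (1.08%) and 30 were lower (0.157%). With CAP, ACT raised 4 genes (0.0209%) and lowered 5 (0.0262%). The effect with CAP shares no value with the effect without it, so it can be read for genes picked by the latter. The 206 genes higher in ACT had a median scaled effect of 4.03 without CAP and 0.039 with it, and 105 of them kept a positive sign. This joins 101 genes of chromosome 16, which was shifted in ACT as described below, with 105 elsewhere. With CAP the median was -0.11 on chromosome 16, where 44 kept a positive sign, and 0.264 elsewhere, where 61 did. The 30 genes lower in ACT had medians of -3.96 and -0.0164, and 16 kept a negative sign. Of both sets together, 1 passed in the opposite direction with CAP, GTPBP6, and 1 in the same direction, ATP2C1 (4.63 without and 4.42 with CAP). ATP2C1 is the calcium and manganese pump of the Golgi. Its z was -1.58 (EtOH), 4.55 (ACT), -3.84 (CAP) and 0.083 (ACT CAP), so ACT raised its z by less with CAP.

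**Figure D1:**
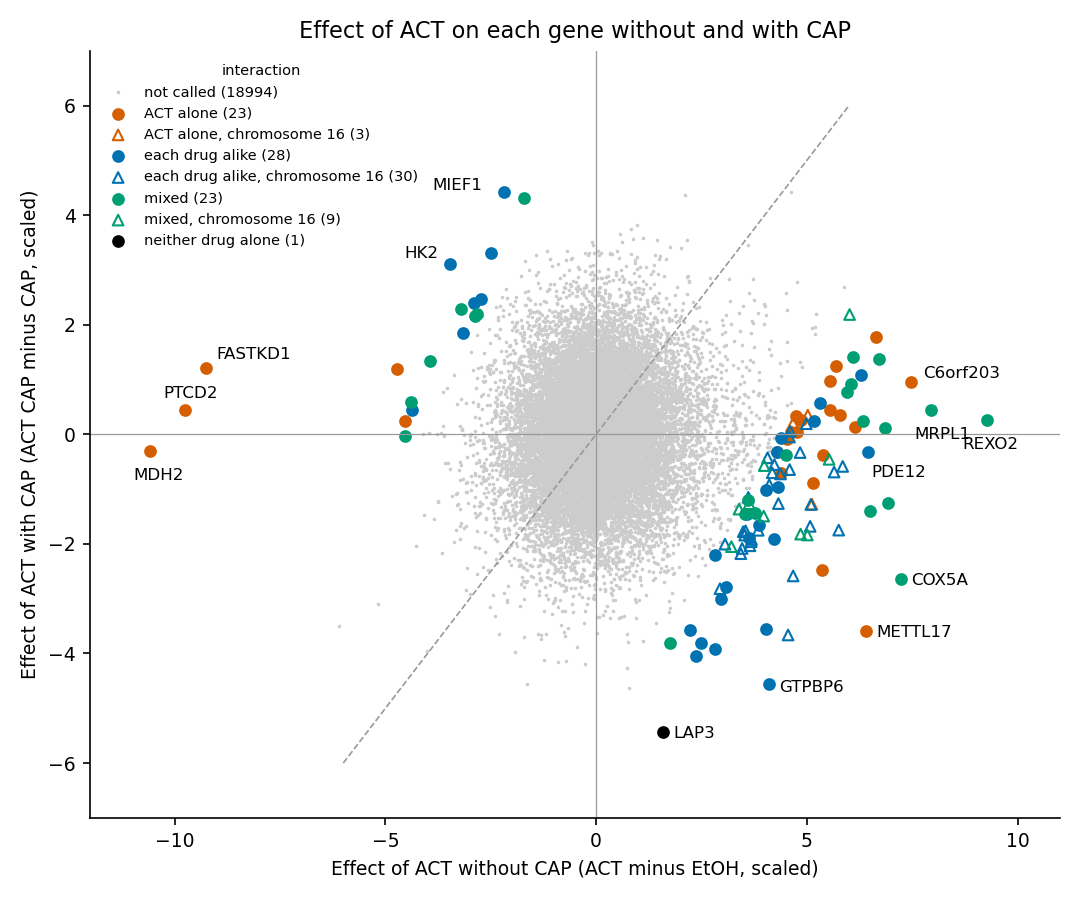
Each point is a gene, placed by the scaled effect of ACT without CAP (horizontal) and with CAP (vertical), and the dashed line marks equal scaled values. Coloured points are the 117 genes that passed the interaction, coloured by the class of their single-drug effects, with open triangles for chromosome 16. Most lie near 0 on the vertical axis, whereas GTPBP6, METTL17 and LAP3 lie well below it and MIEF1 and HK2 above it.

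The 9 genes that ACT moved in the presence of CAP were LAP3, USP51, GTPBP6, RBM15 and NME6, which were lower, and FCHSD1, PHF6, MIEF1 and ATP2C1, which were higher. For 4 of the 9, LAP3, GTPBP6, FCHSD1 and MIEF1, the interaction passed. FCHSD1 did not pass when centred within its chromosome (3.64), an alternative described below. Without centring and scaling LAP3 (-3.50) and MIEF1 (3.18) did not pass, and GTPBP6 (-4.68) did. LAP3, a leucine aminopeptidase, had a z of -2.69 (EtOH), -0.379 (ACT), -1.33 (CAP) and -6.0 (ACT CAP). The value with both drugs lay well below the others. Neither drug alone moved LAP3 beyond 2 (1.59 for ACT and 1.07 for CAP), and its interaction was -0.44 ± 0.13 in beta (standard error), or -4.49 scaled. LAP3 was the sole gene of 16868 unmoved beyond 2 by either drug alone that passed.

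CAP was examined in the same way from its own side. CAP alone raised 36 genes (0.188%) and lowered 12 (0.0628%) against EtOH. Added to ACT, it raised 55 (0.288%) and lowered 102 (0.534%). The 36 genes that CAP alone raised had a median of 4.06, and in the presence of ACT their median effect of CAP was -0.96. For the 10 of them on chromosome 16 this median was -2.16, and 1 kept a positive sign. For the 26 elsewhere it was -0.40, and 11 kept a positive sign. Of the 36, 6 were called in the opposite direction and 2 in the same. The 6 were COX5A, REXO2, MCAT, MRPL1, VAT1L and ATP6AP1, which CAP raised from EtOH and lowered from ACT. The 2 were NDUFB7, a subunit of complex I, and PET117, an assembly factor of complex IV, whose guides were less depleted with CAP in either background (3.94 and 3.88 for NDUFB7, 3.94 and 5.87 for PET117). Of the 12 genes that CAP lowered, HK1 and SLC2A1 were also lowered by CAP in the presence of ACT. HK1 is a hexokinase, an enzyme that starts glycolysis, and SLC2A1 is the glucose transporter GLUT1. Neither passed the interaction (1.76 and 1.27).

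Chromosome 16 stood apart from all others and takes part in many of the results that follow. Gene symbols were matched to chromosomes in the RefSeq table of GRCh38.p14, with 18984 of 19111 genes placed. The 791 genes on chromosome 16 had a median scaled interaction of -1.59, and 89.5% of them lay below the median of all genes. On the other chromosomes the median ran from -0.57 on chromosome 14 to 0.83 on chromosome 18. Chromosome 16 held 42 of the 98 genes with a lower effect of ACT in CAP and none of the 19 with a higher one, so that 5.31% of its genes passed against 0.409% of the others. Its genes had a median z of -1.98 (EtOH), 0.658 (ACT), -1.01 (CAP) and -1.0 (ACT CAP), whereas those of all other genes were -2.03, -1.79, -1.81 and -1.72. In ACT, guides against genes along this chromosome were therefore less depleted as a whole, and 101 of the 206 genes that ACT raised lay there.

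The shift on chromosome 16 ran along its length. With its genes in order and divided into 10 runs of 79 or 80, the median interaction lay between -2.34 and -1.07 in each run, and every run held at least 1 called gene. The shift of chromosome 18 went the other way, with a median effect of ACT of -1.37 against 1.78 on chromosome 16. Values of single replicates or guides, which would show whether 1 replicate carries the shift, were not analysed here, and its source was not tested. When each difference was instead centred on the median of the gene's own chromosome, an alternative chosen after the data were seen, 78 genes were lower (0.408%) and 20 higher (0.105%). Of the genes called before, 74 remained. They comprised 8 of the 42 on chromosome 16, 54 of the 56 lower genes elsewhere and 12 of the 19 higher ones. Most genes of chromosome 16 named below are given with their value after centring.

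**Figure D2:**
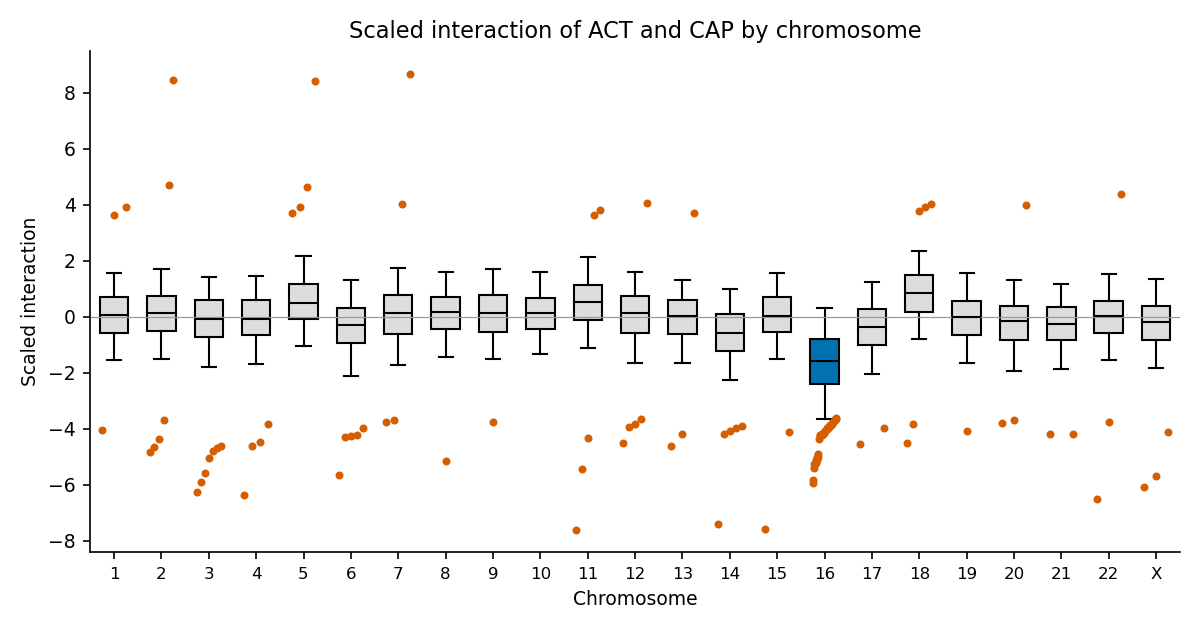
Scaled interaction of all genes by chromosome, with boxes from the 25th to the 75th percentile, the median as a line, whiskers from the 5th to the 95th percentile, and each called gene with a known chromosome as an orange point. Chromosome 16 (blue) has a median of -1.59 and 42 called genes, all lower, whereas the other medians lie between -0.57 and 0.83.

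Genes were then divided by what each drug did on its own. A gene was counted as moved by ACT alone where ACT differed from EtOH by the test, CAP differed from EtOH by no more than 2 scaled units, and ACT differed from CAP by the test in the same direction. It was counted as moved alike by each drug where both drugs moved it beyond 2 in the same direction and ACT and CAP did not differ by the test. The name alike thus stands for a difference that did not pass, and not for equal effects. Between the single drugs 88 genes were higher in ACT (0.46%) and 57 lower (0.298%). By these rules 65 genes were moved by ACT alone, of which 26 (40%) passed the interaction, and 368 were moved alike by each drug, of which 58 (15.8%) passed. Of the 4 genes moved by CAP alone none passed. LAP3 passed with neither drug alone moving it. The other 32 genes that passed were mixed, and 15 of those were moved the same way by both drugs but further by ACT. The classes are set from the EtOH, ACT and CAP values that also enter the interaction, so these shares are a description and not a test.

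The classes differed in how they lay on the genome and in the gene lists. Of the 26 genes moved by ACT alone 3 were on chromosome 16, and of the 58 moved alike by each drug 30 were. Among the 21 genes moved by ACT alone whose interaction was lower, 13 belonged to 8 lists of mitochondrial gene expression, which together hold 202 of the genes tested. Among the 51 moved alike and lower, 13 belonged to those lists, 3 to the v-ATPase lists, and 34 to no list, 27 of the latter on chromosome 16. After centring within chromosomes 21 of the 26 genes moved by ACT alone still passed, 19 of them in the same class, as did 31 of the 58 moved alike, 30 in the same class. With the classes formed anew from the centred values, other genes included, 25 moved by ACT alone and 43 moved alike passed.

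The strongest interactions of the ACT class were 3 genes whose guides were lost in ACT. MDH2, the malate dehydrogenase of the mitochondrial matrix, had a z of 1.22 (EtOH), -11.7 (ACT), -0.513 (CAP) and -0.716 (ACT CAP). FASTKD1, which regulates the level of mitochondrial transcripts, had a z of -1.90, -13.2, -3.24 and -2.11 in the same order. PTCD2, which takes part in processing of the mitochondrial cytochrome b transcript, had -1.14, -13.0, -2.66 and -2.21. In all of them the ACT value stood apart, and the values of EtOH, CAP and ACT CAP lay within 2 z units of each other. The interaction in beta was 1.06 ± 0.17 for MDH2, 1.07 ± 0.17 for FASTKD1 and 0.98 ± 0.16 for PTCD2 (standard errors), or 8.69, 8.46 and 8.42 scaled. CAP alone moved MDH2 by -1.99, PTCD2 by -1.78 and FASTKD1 by -1.61, so MDH2 lay just inside the limit of 2 for an effect of ACT alone. After centring within chromosomes its interaction passed (9.10), but MDH2 was no longer counted as moved by ACT alone and became mixed.

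FASTKD3, a relative of FASTKD1 that acts on other mitochondrial transcripts, had a z of -1.46 (EtOH), -7.07 (ACT), -1.63 (CAP) and -0.509 (ACT CAP), and a scaled interaction of 4.65. ANKRD30B, a gene on chromosome 18, was the last of the 5 genes lost with ACT alone, with an interaction of 3.93 that became 3.30 and did not pass after centring within its chromosome. YME1L1, an inner membrane protease, was also moved by ACT alone, with a z of -3.07 (EtOH), -10.2 (ACT), -3.37 (CAP) and -6.30 (ACT CAP). Its effect of ACT was -6.11 without CAP and -3.50 with it, or -0.958 and -0.387 in beta. The interaction of YME1L1 was 3.09 and did not pass. For YME1L1, unlike the genes above, the guides stayed partly depleted with both drugs.

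**Figure D3:**
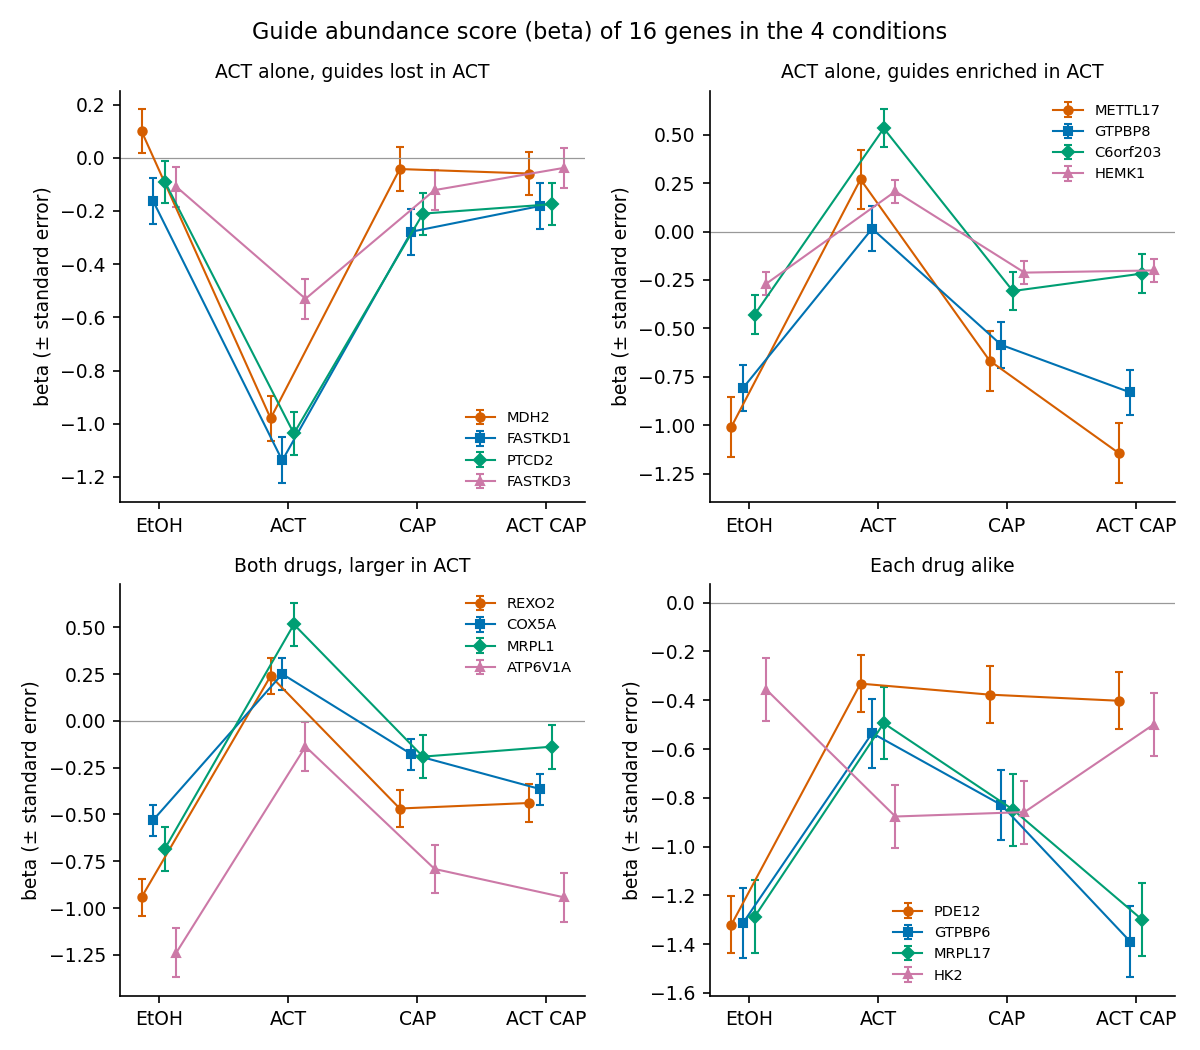
Beta of 16 genes in EtOH, ACT, CAP and ACT CAP, with standard errors from the deposited fit, in 4 panels by class. The genes lost or enriched by ACT alone return towards their EtOH value in CAP and ACT CAP, REXO2 and its panel stop part of the way, and PDE12 stays at 1 level in all drug conditions.

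The 21 genes of the ACT class with a lower interaction each had a z below 0 in EtOH and above 0 in ACT. Over all genes the median z was -2.03 in EtOH and -1.73 in ACT, so a z below 0 in EtOH was usual and is not by itself a sign of depletion. METTL17, an iron-sulfur protein of small mitoribosomal subunit assembly, had a z of -6.49 (EtOH), 1.78 (ACT), -4.32 (CAP) and -7.29 (ACT CAP). GTPBP8, a GTPase of mitoribosome assembly, had -6.89, 0.124, -5.00 and -7.06. C6orf203 (now MTRES1), an RNA-binding protein of the mitoribosome, had -4.30, 5.39, -3.09 and -2.18. METTL17 and GTPBP8 were as depleted with both drugs as in the solvent, and C6orf203 returned below 0. The interaction in beta was -1.75 ± 0.31 for METTL17, -1.07 ± 0.23 for GTPBP8 and -0.87 ± 0.20 for C6orf203, or -7.40, -5.90 and -5.67 scaled. With CAP present the effect of ACT was -3.59 for METTL17, -2.47 for GTPBP8 and 0.96 for C6orf203, none of which passed. The effect of CAP alone was 1.90 on METTL17, 1.60 on GTPBP8 and 0.93 on C6orf203.

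Assembly was joined by chain release and end trimming. HEMK1, the methyltransferase of the mitochondrial release factor, had a z of -4.54 (EtOH), 3.50 (ACT), -3.57 (CAP) and -3.38 (ACT CAP). METAP1D, the mitochondrial methionine aminopeptidase that acts on chains after deformylation, had -1.87, 4.91, -1.47 and -2.18. C12orf65 (now MTRFR), which rescues stalled mitoribosomes, had -4.58, 1.69, -3.57 and -3.46. For these genes CAP and ACT CAP gave nearly the same value, so that ACT had almost no effect once CAP was present (0.14 for HEMK1, -0.89 for METAP1D and 0.05 for C12orf65). Their scaled interactions were -5.06, -4.82 and -3.94, and CAP alone moved none of them beyond 1.

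RPUSD3 and PUS1, both pseudouridine synthases of mitochondrial RNA, had interactions of -4.70 and -4.52, and GTPBP3, an enzyme of wobble base modification in mitochondrial tRNAs, had -4.08. SHMT2, the mitochondrial serine hydroxymethyltransferase that supplies folate units for tRNA modification, had -3.85, and MTHFD1, a cytosolic folate enzyme on chromosome 14, had -3.91 (-3.55, not passing, within its chromosome). NOA1, a GTPase of mitoribosome assembly, had -4.63, MRPL9, a protein of the large subunit, -4.04, and GRSF1, a protein of mitochondrial RNA granules, -3.83. HIBCH of valine breakdown (-4.37), TOMM7 of the outer membrane import pore (-3.77), SLC25A1, the mitochondrial citrate carrier (-3.76), and TOX4, a chromatin protein (-4.08), were not on any list. The last 3, EDC4, RHOT2 and MYLPF, lay on chromosome 16 and did not pass after centring (-3.65, -2.55 and -2.34). EDC4 is a scaffold of messenger RNA decapping and RHOT2 a mitochondrial transport GTPase.

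How firmly a gene is placed as moved by ACT alone depended on the limit for CAP. With a limit of 1 in place of 2, 11 of the 26 genes kept the class. They were C6orf203, HEMK1, METAP1D, GTPBP3, TOX4, MRPL9, C12orf65, TOMM7, SLC25A1, FASTKD3 and ANKRD30B. METTL17, GTPBP8, MDH2, FASTKD1 and PTCD2 had CAP effects between 1 and 2 in size in the direction of their ACT effect. MRPL44, a large subunit protein, was moved by ACT alone (3.55 for ACT, 0.15 for CAP), and its interaction of -2.80 did not pass.

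Among genes that each drug moved alike, 2 patterns were seen. In the first, both drugs together left the guides where each drug had left them. PDE12, which removes poly(A) tails from mitochondrial transcripts, had a z of -11.2 (EtOH), -2.83 (ACT), -3.22 (CAP) and -3.43 (ACT CAP). All drug conditions lay within 1 z unit of each other and far above EtOH. ACT and CAP differed by between -0.28 and 0.37 in beta (95% interval), the effect of ACT in the presence of CAP was -0.32 scaled, and the interaction was -1.01 ± 0.23 in beta, or -5.59. By a rule chosen after the data were seen, with both single additions to the other drug within 2, 4 of the 58 genes had this pattern, PDE12, PDPR, PAGR1 and VAC14. Of these PDPR, PAGR1 and VAC14 lay on chromosome 16 and did not pass after centring (-2.82, -2.63 and -2.46).

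In the second pattern both drugs together moved the guides back from the level of each drug, towards that of EtOH or past it. GTPBP6, a GTPase that takes part in mitoribosome recycling and assembly, had a z of -9.15 (EtOH), -3.77 (ACT), -5.82 (CAP) and -9.62 (ACT CAP). Its guides were as depleted with both drugs as with none. GTPBP6 was also the 1 gene whose ACT effect passed the test in opposite directions, at 4.09 without CAP and -4.55 with it. In beta these effects were 0.779 and -0.561, so the one with CAP was the smaller in size. The interaction of GTPBP6 was -1.34 ± 0.29 in beta, or -6.07. MRPL17, a protein of the large subunit, behaved likewise, with a z of -8.66, -3.36, -5.74 and -8.69 and an interaction of -5.43. GFM1, the mitochondrial elongation factor G1, had a z of -7.91, -4.09, -5.35 and -8.63 and an interaction of -4.63, which was -3.63 and did not pass with beta scaled to essential genes. For ACT against CAP the 95% interval of the beta difference was -0.10 to 0.69 for GTPBP6, -0.05 to 0.76 for MRPL17 and -0.20 to 0.53 for GFM1, so that equal effects of the drugs on these genes were not shown.

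By the matching rule, with the addition of either drug to the other moving the gene back by more than 2, 20 of the 58 genes had this second pattern, 15 lower and 5 higher, 7 of them on chromosome 16. Beside GTPBP6, MRPL17 and GFM1 the lower ones included RPUSD4, a pseudouridine synthase of mitochondrial rRNA (z of -11.2, -7.90, -7.02 and -10.4), and the mitoribosomal proteins MRPS18A (interaction -4.22) and MRPL57 (-4.20), which did not pass with beta scaled to essential genes (-3.20 and -3.05). The other 34 genes lay between the patterns. C10orf2 (now TWNK), the helicase that unwinds mitochondrial DNA, was one of these, with a z of -10.6, -7.57, -6.29 and -9.24 and an interaction of -3.93, or -2.69 and not passing under that scaling.

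Of the genes moved alike by each drug, 7 went in the opposite sense, with guides lost in either drug and less so with both. HK2, another hexokinase isoform, had a z of -2.78 (EtOH), -6.77 (ACT), -6.64 (CAP) and -3.88 (ACT CAP). The beta difference of HK2 between ACT and CAP was -0.38 to 0.34 (95% interval), so that equal effects of the drugs were not shown for it either. With both drugs HK2 lay nearer to its EtOH value. The interaction of HK2 was 0.88 ± 0.26 in beta, or 4.70. MIEF1, an outer membrane receptor for the mitochondrial fission machinery, had a z of -1.02, -3.45, -4.17 and -0.241 and an interaction of 4.40, and its effect of ACT with CAP present passed (4.42). ZNF341, a zinc finger transcription factor, had 0.756, -2.05, -1.95 and 1.0 and an interaction of 3.99. KHDRBS1, TM7SF2, PAPD7 and RFC3 completed the group with interactions of 3.91, 3.81, 3.71 and 3.71, and TM7SF2 and PAPD7 did not pass after centring within their chromosomes (3.49 and 3.41).

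The largest negative interactions outside these classes belonged to genes that both drugs raised, ACT further than CAP. REXO2, the mitochondrial oligoribonuclease that clears short RNA fragments, had a z of -9.52 (EtOH), 2.43 (ACT), -4.74 (CAP) and -4.44 (ACT CAP). COX5A, which belongs to cytochrome c oxidase, had -6.37, 3.02, -2.14 and -4.38, and MCAT, of mitochondrial fatty acid synthesis, -11.5, -2.58, -7.19 and -8.19. MRPL1, a protein of the large subunit, had -5.82, 4.46, -1.64 and -1.18. In each of them CAP alone raised the z by part of what ACT did, and with both drugs the value lay near that of CAP or below it. The interaction in beta was -1.15 ± 0.20 for REXO2, -0.97 ± 0.17 for COX5A, -1.30 ± 0.26 for MCAT and -1.15 ± 0.23 for MRPL1, or -7.60, -7.58, -6.51 and -6.38 scaled. The direct difference of ACT and CAP was 6.48, 4.64, 4.17 and 5.49, so the effect of ACT on these genes was the larger one by its own test.

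The v-ATPase, the proton pump that acidifies lysosomes, had 7 of its 32 listed genes with a lower interaction, against 0.513% of all genes. ATP6V1A, the catalytic subunit of its V1 part, had a z of -9.49 (EtOH), -1.06 (ACT), -6.08 (CAP) and -7.22 (ACT CAP) and an interaction of -6.25. ATP6AP1, an accessory subunit, had -6.85, 2.03, -2.40 and -2.24 and an interaction of -5.68. ATP6V1C1 (-5.16) and WDR7 (-4.52), a regulator of the pump, were also moved by both drugs and further by ACT. ATP6AP2 (-4.12), ATP6V1G1 (-3.77) and ATP6V0C (-3.86) were counted as moved alike by each drug, since ACT and CAP did not differ by the test. For ATP6AP2 and ATP6V0C the 95% interval of ACT minus CAP in beta still lay above 0 (0.04 to 0.63 and 0.10 to 0.76). For ATP6V1G1 it did not (-0.03 to 0.66). ATP6V0C, on chromosome 16, was at -2.42 after centring. ATP6AP2 and ATP6V1G1 did not pass with beta scaled to essential genes (-3.61 and -3.11), nor, with ATP6V1C1 and WDR7, without centring and scaling, where ATP6V1A and ATP6AP1 passed. None of the 7 was moved by ACT alone, since their scaled effect of CAP alone ran from 2.19 to 4.17. The median interaction was -2.02 over 13 genes of V1 and -1.80 over 19 genes of V0, its accessory subunits and assembly factors, against 0 over all genes by construction.

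Genes outside mitochondria and lysosomes that passed with the lowest values were largely on chromosome 16. VAT1L had a z of -2.28 (EtOH), 3.75 (ACT), 1.89 (CAP) and -1.24 (ACT CAP) and an interaction of -5.94, or -4.63 within its chromosome, which still passed. ACD, a protein of the telomere cap, had -5.50, 2.04, -1.39 and -2.85 and an interaction of -5.83, or -4.51, which passed too. E2F4, a transcription factor of the cell cycle, went from -5.41 to -4.07 and also passed. The 8 genes of chromosome 16 that passed both ways were VAT1L, ACD, E2F4, PRR14, SULT1A4, SNX20, IST1 and MAZ, the last 5 at -3.90, -3.88, -3.87, -3.76 and -3.75 after centring. SULT1A4 has a nearly identical copy nearby, so guides against it may cut both. Elsewhere in the genome VHL, the recognition subunit of the ligase that degrades hypoxia-inducible factors (-4.80), INTS6 of the Integrator complex (-4.62), DRG2 (-4.53) and the kinase MAPK14 (-4.28) passed under both centrings, and were chosen for naming after their values were seen.

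The lists written for mitochondrial gene expression lay to the negative side. Over 26 factors of mitoribosome assembly and rRNA the median interaction was -2.62 with 8 lower and none higher, over 31 small subunit proteins -2.40 with 3 lower, over 51 large subunit proteins -1.70 with 6 lower, and over 19 translation factors -1.89 with 4 lower. Enzymes of tRNA modification had a median of -1.30 with 5 of 26 lower. PTCD3 (-4.64), MRPS18A and MRPS33 (-3.70) were the 3 of the small subunit. The 19 mitochondrial tRNA synthetases had a median of -0.77 and none passed, with 1 lower and none higher at an unadjusted p under 0.05. All genes had a median of 0, and 0.513% of them were lower. At an unadjusted p under 0.05, 890 of all 19111 genes were lower and 495 higher. For the assembly factors the median was 2.76 for ACT alone, 1.32 for CAP alone and -0.63 for ACT in the presence of CAP. Each list held at most 2 genes of chromosome 16, and after centring within chromosomes the medians were -2.77, -2.37, -2.05, -1.82, -1.42 and -0.72 in the order given.

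The 15 genes of mitochondrial RNA processing and decay split in direction. REXO2, PDE12 and GRSF1 were lower and FASTKD1, PTCD2 and FASTKD3 higher, against 0.513% lower and 0.0994% higher of all genes. Thus 6 of the 15 passed, and the list median of 0.03 describes neither side. Between the single drugs, 5 of the 15 were lower in ACT than in CAP (0.298% of all genes) and 2 higher (0.46%).

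The lists of the respiratory chain held few genes that passed the interaction. The 51 genes of complex I and its assembly had a median effect of -1.17 for ACT and 1.38 for CAP, and 14 of them were lower in ACT than in CAP by the test, against 0.298% of all genes. Their median effect of ACT in the presence of CAP was -0.17 and their median interaction 0.86, with none passing (1 lower and 4 higher at an unadjusted p under 0.05). Of all 19111 genes, 890 were lower and 495 higher at that unadjusted level. Complex IV and its assembly gave -1.34 for ACT, 0.98 for CAP and a median interaction of 1.05 over 36 genes. Of these, 2 were lower, against 0.513% of all genes, and none higher, against 0.0994%. The 2 were COX5A and COX4I1, subunits that do not follow the rest of the list. COX4I1 lies on chromosome 16, and its interaction of -4.14 became -2.71 and did not pass after centring. In coenzyme Q synthesis 5 of 12 genes were lower in ACT than in CAP, with a median interaction of 0.72 and none passing (0 lower and 3 higher at an unadjusted p under 0.05). For complex V the median interaction was 0.09 over 21 genes and for complexes II and III 0.27 over 23, and in neither did a gene pass (0 and 1 lower, none higher, at an unadjusted p under 0.05).

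Energy metabolism outside the chain contributed single genes. Of 26 genes of the tricarboxylic acid cycle and pyruvate entry, MDH2 and CS were higher. Over all genes 0.0994% were higher and 0.513% lower. CS, the citrate synthase, had a z of -2.47 (EtOH), -7.08 (ACT), -3.60 (CAP) and -2.36 (ACT CAP) and an interaction of 4.08. HK2 was the sole one of 23 genes of glucose uptake and glycolysis to pass, in a list with a median effect of -0.54 for ACT and -2.20 for CAP. MCAT was the sole one of 25 genes of iron-sulfur clusters and lipoylation. Of the remaining genes with the highest interactions, MBD1 and AGAP3 had 4.02 and 4.01, and MBD1, on chromosome 18, was at 3.40 and did not pass after centring.

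Lists with no known part in mitochondria served as a background. The 76 cytosolic ribosomal proteins had a median interaction of -0.01, 31 proteasome subunits -0.02 and 39 spliceosome proteins 0.02, and none of these genes passed (2 lower and 4 higher at an unadjusted p under 0.05). The 374 olfactory receptors had a median of 0.29, which was 0.04 after centring within chromosomes, and none passed (7 lower and 21 higher at an unadjusted p under 0.05). Of all 19111 genes, 890 were lower and 495 higher at that level, so before this centring the receptors leaned to the higher side. Along the fitness scale, with genes divided into 10 groups by their mean beta, the median interaction ran from -0.198 to 0.0751, so none of these groups was shifted as chromosome 16 was.

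**Figure D4:**
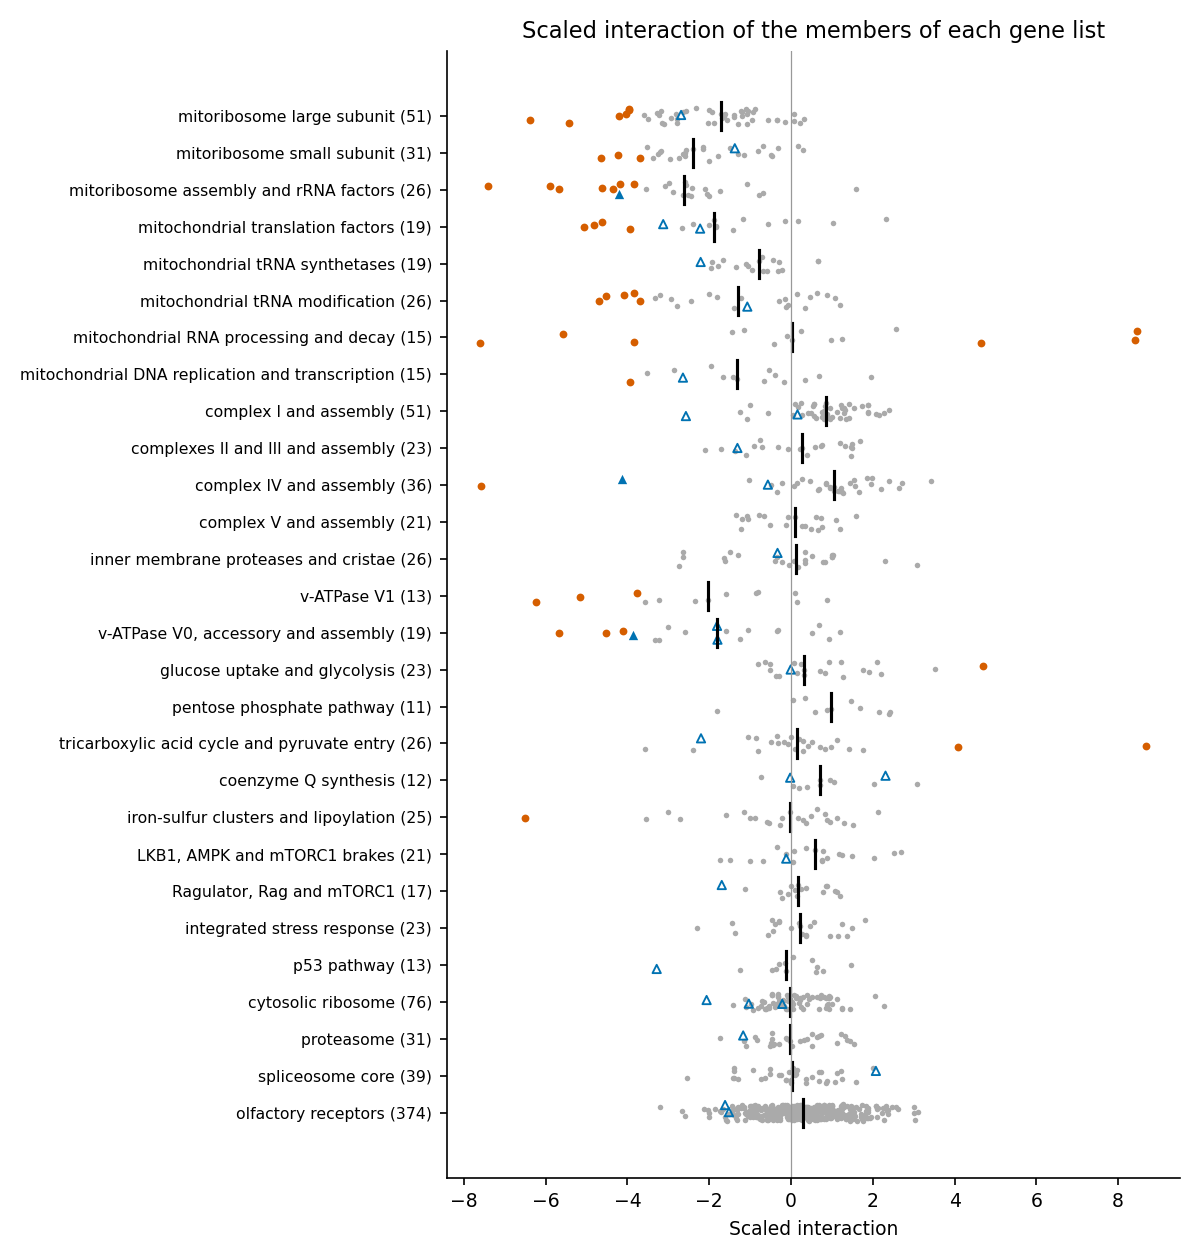
Scaled interaction of every member of each gene list (number of genes in brackets), with the list median as a black bar. Called genes are orange, and genes of chromosome 16 are blue triangles, filled where called. The lists of mitoribosome, assembly, translation factors and v-ATPase lie below 0, complexes I and IV lie above it with COX5A far below, and RNA processing and decay holds called genes on both sides.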

How the data were processed

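The deposited table held MAGeCK output per gene and condition, made by the authors from 12 samples processed in a single batch (version not given in the sources used here). Its beta score, z score and Wald p-value, as deposited, were used. Its other p-values and its FDR columns were not used here. The reference of beta is not named. A spreadsheet had turned 1146 of 76448 z cells into dates, all at z above 1. The deposited Wald p-value gave their size and beta their sign, to within 0.00102 on intact cells. The gene TSC2, with a date for a beta, was left out. Standard errors were beta divided by z. Differences were tested with Python 3.11.15 scripts (numpy 2.4.6, pandas 2.3.3 and scipy 1.17.1) checked on simulated data, as described with the results. Members and lists were chosen with earlier results of these data known. Named genes were the 12 lowest and 10 highest called, the 6 largest in each class, the 3 largest called in each of the lists, and genes the study names. Others are named to complete a group or count. Neither depth per sample nor values per replicate were analysed here, so that p-values rest on the standard errors of the fit. Drug doses are from the study's methods, since the labels give none.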

Additional observations from a re-analysis of the deposited data

Results flagged for a closer look

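The effect of ACT differed between cells without and with CAP, by the interaction test, for 98 genes in the negative and 19 in the positive direction. For GTPBP6 the effect of ACT passed in opposite directions in the absence and presence of CAP, with a scaled interaction of -6.07.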

How the results depend on the processing

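Counts are given as lower, higher, ACT alone and each drug alike (98, 19, 26 and 58 as reported). They were 18, 3, 6 and 8 without centring and scaling of the interaction, and 53, 6, 14 and 36 at an adjusted p of 0.01. Beta scaled to essential genes gave 16 for ACT alone, with 66 lower, 17 higher and 48 alike. It moved the median interaction before centring and scaling from -0.12 to -0.224. This setting rests on the gap between olfactory receptors and the cytosolic ribosome, proteasome and spliceosome lists. Their median z in EtOH was -1.36 for the receptors and -2.68, -2.35 and -2.78 for these lists, against -2.03 for all genes. The essential lists were thus little more depleted than all genes. Genes with no date cell gave 60 lower and 13 for ACT alone, since leaving out date cells removes genes with z above 1. A limit of 1 for the other drug gave 11 for ACT alone. Without chromosome 16, an alternative chosen after the data were seen, 60 were lower, 29 alike and 75 of the 79 calls were shared. Running centres over fitness, z in place of beta, genes with 4 sgRNAs and centring within chromosomes kept all of these counts within 1.5 times. Of 46 named genes (32 among genes with no date cell, 42 without chromosome 16, and not recomputed for the limit of 1, which leaves the interaction as it was) none reversed. Without the scaling 25 no longer passed, at an adjusted p of 0.01 11, and within chromosomes 2 (COX4I1 and MBD1). With beta scaled to essential genes 14 no longer passed: GFM1, PTCD3, MRPS33, GTPBP3, ATP6V1G1, RPUSD3, C10orf2, COX4I1, MBD1, C12orf65, ZNF341, MRPS18A, ATP6AP2 and MRPL57. No paired analysis was possible because the columns hold no values per replicate, and for the same reason no replicate was left out.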
